A study of Arabidopsis thaliana with 22 samples.

Results

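Etiolated Arabidopsis thaliana seedlings were compared after 6 h and after 1 h of continuous red light, a comparison that asks which transcripts go on changing after the first hour of light. It compares 4 of the 22 libraries of the study, 2 from each time point, with the spread between replicates estimated over all 22. It covered all 23011 genes that passed a filter on low counts, of 33602 in the deposited table. The comparison thus covers all genes that passed, and beyond that filter no gene was left out of it by its values. The gene lists below were chosen with earlier results of these data known, and many named genes by their values. All groups were Col-0 seedlings, the wild-type accession, aged 6 days, grown in darkness at about 20 °C on medium with 2% sucrose after stratification and 2 h of white light to induce germination. The red 6 h and red 1 h libraries both came from lit seedlings and were sequenced 2 per pool. The red series also has seedlings left dark over the 6 h (dark 6 h) and seedlings taken at the start (0 h), 2 libraries each and 4 per pool. The blue series has the same 4 groups. Whole seedlings were sampled, so that fewer cells of a type and less RNA per cell cannot be told apart. The labels do not say whether replicates were separate cultures, and p-values measure the spread between these samples only.

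Seedlings that germinate in darkness grow a long hypocotyl, keep the cotyledons closed and hold etioplasts with the chlorophyll precursor protochlorophyllide in place of chloroplasts. Red light is absorbed mainly by phytochromes, which enter the nucleus, trigger the turnover of the PHYTOCHROME INTERACTING FACTORS (PIFs) and curb the COP1-SPA ubiquitin ligase, so that HY5 and related transcription factors build up. The seedling then shortens its hypocotyl growth, makes chlorophyll, builds thylakoids and starts to fix carbon. Light also sets the circadian clock, a network of MYB-like morning factors (CCA1, LHY and the REVEILLE proteins) and PSEUDO-RESPONSE REGULATORs that repress each other in turn.

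Total counts were 78741336 and 78811593 in the red 6 h libraries, against 81598671 and 79820160 in the red 1 h libraries, and lay between 41501666 and 68755480 in the 4 dark libraries of the series. Levels are given as CPM, counts scaled per 1e6 of the TMM-normalised library size, for replicates 1 and 2 in that order, and changes are log2 of red 6 h over red 1 h from the edgeR fit. On the first principal component of the red series, with 56.5% of the variance, the red 6 h libraries stood at 75.5 and 91.8, the red 1 h libraries at -8.64 and -3.17 and the 4 dark libraries between -54.5 and -30.7. The red 1 h libraries were at the low end of the second component (16.5%), at -32.9 and -56.8, with the other 6 between 1.22 and 26.4. Of the markers of etiolated seedlings, PHYA (AT1G09570), the phytochrome that builds up in darkness, stood at 477 and 516 CPM at 6 h, 1063 and 1183 at 1 h, 1409 and 1714 in dark 6 h and 1427 and 1234 at 0 h. PIL1, a bHLH gene repressed by red light, stood at 1.83 and 2.05 CPM at 6 h, 1.86 and 2.25 at 1 h, 26.6 and 26.2 in dark 6 h and 26.4 and 32.2 at 0 h. PHYA and PIL1 thus separated lit from dark libraries as labelled. PORA, another such marker, did not, with 192 and 118 CPM at red 1 h and 516 and 136 CPM at 0 h. Its red 6 h libraries, at 64.2 and 53.8 CPM, lay below all 4 dark ones. Red 1 h replicate 2 differed from its partner in the summed level of 10 seed storage genes, which was 51.3 and 25.04 CPM at 6 h and 22.4 and 836 CPM at 1 h. In the dark the same sum was 40.4 and 584 CPM at 6 h and 16.2 and 37.7 CPM at 0 h. None of the 10 was called, and their part in any result was not tested. Of all genes tested 11.1% were called lower at 6 h and 16.7% higher, and the next marker counts are to be read against these shares. Of 10 root markers, 1 fell (SHR, -0.31, adjusted p = 0.0296; above 0.05 without any 1 of the 4 libraries). Of 3 guard cell markers, 1 rose (KAT1, 0.88, adjusted p = 0.0162; above 0.05 without red 6 h replicate 1 or 2 or red 1 h replicate 2).

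Between 1 h and 6 h of red light, edgeR called 6402 of 23011 genes (27.8%) at an adjusted p under 0.05. Of these, 3842 (16.7% of the genes tested) were higher at 6 h and 2560 (11.1%) were lower. Every list count below is to be read against these shares. More than 2-fold changes were found in 1332 genes that rose and 608 that fell, and more than 8-fold changes in 128 and 61. The median log2 change over all genes tested was 0.0025. Leaving out a library left 5193 or 3534 genes called when it was red 6 h replicate 1 or 2, and 3931 or 3756 when it was red 1 h replicate 1 or 2. Over 6 h of darkness in the same series, edgeR called 0 genes for dark 6 h against 0 h (412 had an unadjusted p under 0.05, and DESeq2 called 0).

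**Figure D1:**
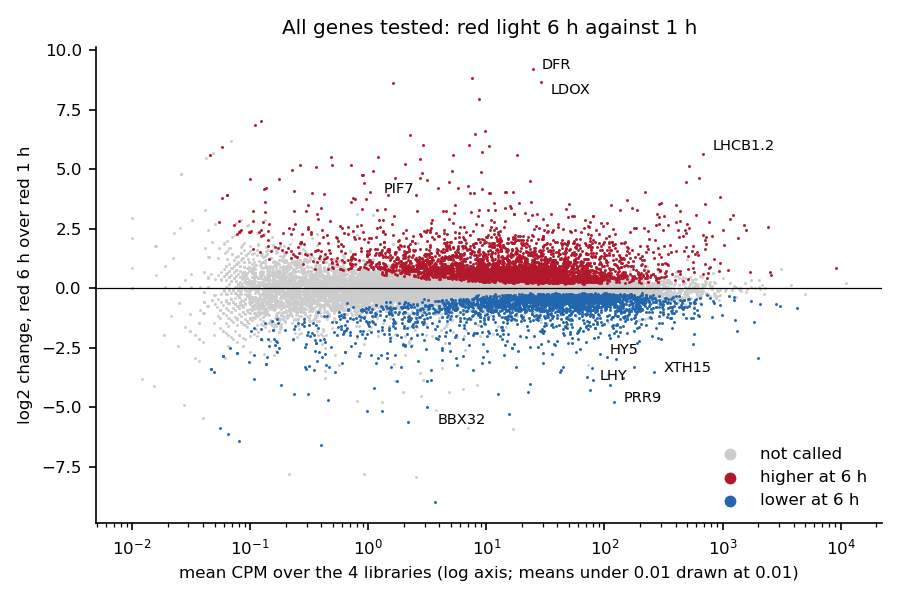
Each point is 1 of the 23011 genes tested, with its mean CPM over the 2 red 6 h and 2 red 1 h libraries on a log axis and its log2 change, red 6 h over red 1 h, on the vertical axis. Red points are the 3842 genes called higher at 6 h and blue points the 2560 called lower (edgeR, adjusted p under 0.05), grey points were not called.

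Genes of the photosynthetic apparatus rose as a group. All 51 genes measured for photosystem subunits, light-harvesting proteins and the electron carriers between them were higher at 6 h (16.7% of all genes were), with a median log2 change of 2.60. The count was 51 or 45 with red 6 h replicate 1 or 2 left out and 47 or 48 with red 1 h replicate 1 or 2 left out. Their summed level was 37219.8 and 56068 CPM in the red 6 h libraries, against 7990.2 and 8013 CPM at 1 h, 4508 and 4366 CPM in dark 6 h and 5729 and 2499 CPM at 0 h. For all 51 genes the 6 h libraries also lay above all 4 dark libraries, as in 94.9% of all genes that rose, and for 42 of them both 1 h libraries already did, against 20.1% of all genes that rose. In all 51, red 6 h replicate 2 was above replicate 1, as in 57.3% of all genes.

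The light-harvesting chlorophyll a/b proteins form the antennae of photosystem I (LHCA) and photosystem II (LHCB), and all 20 LHC genes of the list rose. LHCB1.2 (AT1G29910) stood at 1008 and 1667 CPM at 6 h, against 30.7 and 23.01 CPM at 1 h (log2 change 5.64, SE 0.90, adjusted p = 3.94e-04). LHCB1.1 and LHCB1.4 rose by log2 changes of 4.64 and 5.16. Reads of these near-identical copies may have been split between them, so that each single value is uncertain. LHCB1.3 rose to 2850.1 and 5549.5 CPM, against 853 and 534 CPM at 1 h (log2 change 2.60, SE 0.68, adjusted p = 0.0109). Its call did not hold without red 6 h replicate 2 (2.01, adjusted p = 0.0900) or red 1 h replicate 2 (2.28, adjusted p = 0.106).

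LHCA1 (AT3G54890) of the photosystem I antenna rose 14.5-fold, to 1574 and 1988 CPM against 112 and 133 CPM at 1 h (log2 change 3.86, SE 0.42, adjusted p = 3.10e-05). In the dark it stood at 24.3 and 20.2 CPM at 6 h and 32.4 and 12.3 CPM at 0 h, so the 1 h libraries lay between the dark and the 6 h libraries. PSAH2 (AT1G52230), a photosystem I subunit at the docking site of the mobile antenna, rose 16.7-fold, to 376 and 462 CPM against 21.8 and 28.4 CPM (log2 change 4.06, SE 0.39, adjusted p = 1.18e-05). PSAO and PSAN, both of photosystem I, rose by 3.26 and 2.99, and PETE1, a plastocyanin that carries electrons to it, by 2.80. PnsB3, a subunit of the chloroplast NDH complex of cyclic electron flow, stood at 33.3 and 54.3 CPM at 6 h and 2.82 and 4.15 CPM at 1 h (log2 change 3.65, SE 0.48, adjusted p = 1.00e-04). The smallest change of the 51 was that of the antenna gene LHCB4.3, at 0.80, a gene named after its value was seen.

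**Figure D2:**
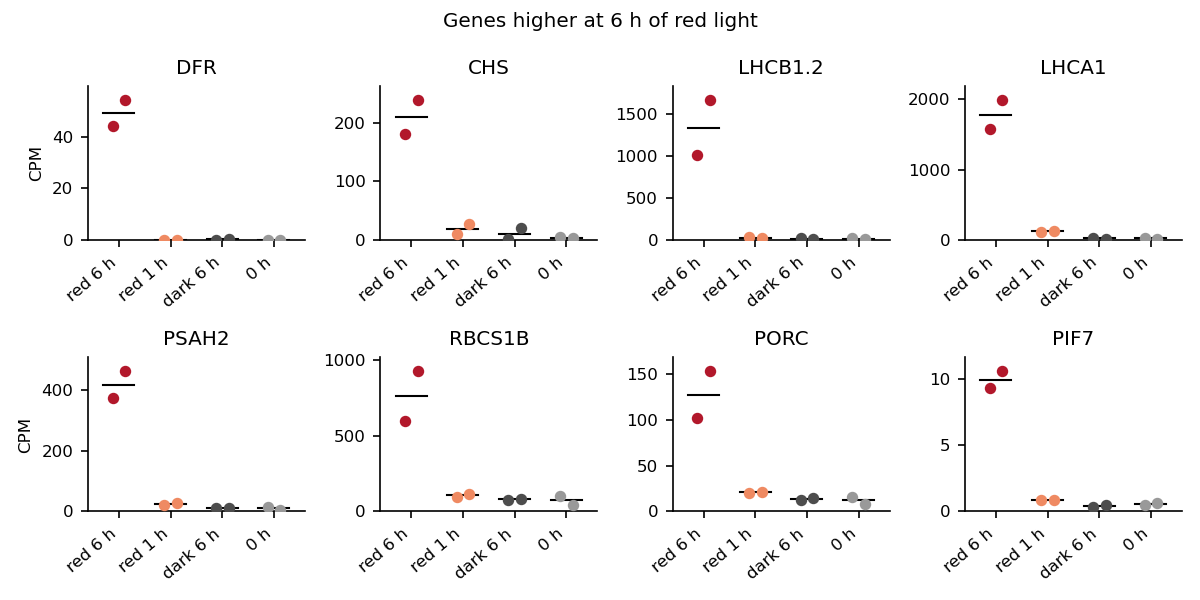
CPM in every library of the red series for 8 genes called higher at 6 h, with points for replicates 1 and 2 (left and right) and a line at their mean; the groups are red 6 h, red 1 h, dark 6 h and 0 h. For each gene both red 6 h libraries lie above the other 6, with LHCA1 at 1574 and 1988 CPM.

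Promoters of 3 genes that rose and 3 that fell are printed because members of their groups moved together and because the G-box is the best known target of HY5 and the PIFs. Each is the 250 bases before the annotated gene start in RefSeq's TAIR10.1 assembly, 5′ to 3′ on the gene's strand. Capitals mark the G-box (CACGTG, the same on both strands) and, on either strand, the I-box (GATAAG). The windows are DFR at chr5:17166033-17166282 (minus strand), PSAH2 at chr1:19454548-19454797 (plus strand), LHCA1 at chr3:20341177-20341426 (minus strand), PRR9 at chr2:19232357-19232606 (plus strand), LHY at chr1:37872-38121 (minus strand) and CCA1 at chr2:19245341-19245590 (plus strand).
DFR: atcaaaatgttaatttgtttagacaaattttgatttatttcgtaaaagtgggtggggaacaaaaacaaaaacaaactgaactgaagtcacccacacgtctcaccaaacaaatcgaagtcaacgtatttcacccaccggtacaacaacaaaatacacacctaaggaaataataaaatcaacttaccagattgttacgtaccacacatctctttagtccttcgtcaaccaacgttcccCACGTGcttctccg
PSAH2: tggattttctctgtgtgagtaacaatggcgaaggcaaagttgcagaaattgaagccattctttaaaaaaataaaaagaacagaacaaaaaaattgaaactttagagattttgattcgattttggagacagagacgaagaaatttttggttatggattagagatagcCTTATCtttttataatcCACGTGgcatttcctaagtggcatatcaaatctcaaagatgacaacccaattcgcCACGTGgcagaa
LHCA1: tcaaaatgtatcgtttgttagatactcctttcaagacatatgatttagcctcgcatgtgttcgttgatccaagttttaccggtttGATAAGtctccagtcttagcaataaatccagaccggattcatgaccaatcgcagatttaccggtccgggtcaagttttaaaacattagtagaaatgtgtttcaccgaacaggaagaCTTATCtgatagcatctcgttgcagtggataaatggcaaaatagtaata
PRR9: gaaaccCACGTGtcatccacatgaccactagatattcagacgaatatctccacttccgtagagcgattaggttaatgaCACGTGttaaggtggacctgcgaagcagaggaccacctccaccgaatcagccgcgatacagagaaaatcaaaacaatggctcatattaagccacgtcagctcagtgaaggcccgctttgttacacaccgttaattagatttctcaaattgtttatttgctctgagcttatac
LHY: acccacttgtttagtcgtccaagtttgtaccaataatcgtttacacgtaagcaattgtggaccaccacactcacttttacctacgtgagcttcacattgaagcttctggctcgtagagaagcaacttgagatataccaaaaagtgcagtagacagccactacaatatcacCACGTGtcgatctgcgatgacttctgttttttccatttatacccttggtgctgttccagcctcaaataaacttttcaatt
CCA1: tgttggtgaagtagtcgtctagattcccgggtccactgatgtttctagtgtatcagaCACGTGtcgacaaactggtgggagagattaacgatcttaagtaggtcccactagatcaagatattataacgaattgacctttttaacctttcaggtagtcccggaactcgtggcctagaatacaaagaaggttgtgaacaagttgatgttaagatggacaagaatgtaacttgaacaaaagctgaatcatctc
The window of PSAH2 held 2 G-boxes and 1 I-box, that of LHCA1 2 I-boxes, and that of DFR 1 G-box at positions -14 to -9 from the gene start. PRR9 had 2 G-boxes, and LHY and CCA1 had 1 each. Over all 22843 promoters of tested genes, 7.2% held a G-box and 12.4% an I-box. Among the photosystem genes the counts were 10 and 12 of 51, and among the clock genes 10 and 5 of 26. Of promoters of genes that rose, 7.19% held a G-box, and of genes that fell 10.8%. The evening element AAATATCT, which clock MYB factors bind, was found in 4.84% of all promoters, 6.13% of those of genes that rose and 4.5% of those of genes that fell, searched on both strands. A match is a description of these letters and not evidence of binding.

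Genes of carbon fixation and the pathways tied to it rose with the photosystem genes. Of 20 Calvin cycle genes, 16 rose and 0 fell (of all genes 16.7% and 11.1% did), with a median of 1.67, and their sum was 12944 and 20371 CPM at 6 h against 6126 and 6312 CPM at 1 h. RBCS1B (AT5G38430), a Rubisco small subunit, stood at 598 and 925 CPM at 6 h and 97.7 and 115 CPM at 1 h (log2 change 2.84, SE 0.41, adjusted p = 1.92e-04). RBCS1A, another small subunit gene of similar sequence, stood at 3215 and 4847 CPM at 6 h and 2392 and 2153 CPM at 1 h and was not called (log2 change 0.83, SE 0.39, adjusted p = 0.138), but was in a fit of the 4 light libraries alone (adjusted p = 0.0450). In that gene the groups did not overlap, yet the red 6 h replicates differed from each other by more than the lower of them differed from the 1 h libraries. GAPA-2, a subunit of the chloroplast glyceraldehyde 3-phosphate dehydrogenase, rose by 2.72, and EMB3119, a ribose 5-phosphate isomerase, by 1.99. The Calvin cycle count was 16 or 11 with red 6 h replicate 1 or 2 left out and 13 or 15 with red 1 h replicate 1 or 2 left out. Chloroplast carbonic anhydrase, CA1 (AT3G01500), rose 22.4-fold, to 669 and 1197 CPM against 38.1 and 45.1 CPM at 1 h (log2 change 4.49, SE 0.65, adjusted p = 1.98e-04).

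Photorespiration recycles the product of Rubisco's reaction with oxygen, and 6 of its 9 genes measured rose while 0 fell. SHM1, the mitochondrial serine hydroxymethyltransferase, stood at 469.8 and 728 CPM at 6 h and 85.5 and 102 CPM at 1 h (log2 change 2.68, SE 0.30, adjusted p = 3.39e-05). GGT1, a peroxisomal aminotransferase, rose by 1.37. The calls of HPR1 and GOX2 did not hold without red 6 h replicate 2 (adjusted p = 0.0820 and 0.0520), nor that of HPR1 without red 1 h replicate 1 (adjusted p = 0.0504). The count was 7 or 2 with red 6 h replicate 1 or 2 left out and 3 or 4 with red 1 h replicate 1 or 2 left out. Of 7 genes of nitrogen assimilation, 5 rose. GLN2, the plastid glutamine synthetase, rose by 1.78, the nitrate reductase NIA1 by 1.34 and the asparagine synthetase ASN2 by 2.36. GLU1, the ferredoxin-dependent glutamate synthase, rose by 1.43, with an adjusted p of 0.0811 without red 6 h replicate 2 and 0.0651 without red 1 h replicate 1. The nitrogen count was 4 or 3 with red 6 h replicate 1 or 2 left out and 3 or 4 with red 1 h replicate 1 or 2 left out.

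In the chlorophyll and tetrapyrrole pathway, 22 of 29 genes rose and 2 fell, with a median of 1.12. HEMC, HEME2 and HEME1, enzymes between 5-aminolevulinate and protoporphyrin, rose by 2.06, 1.95 and 2.31. CHLI1, a subunit of the magnesium chelatase at the start of the chlorophyll branch, stood at 303 and 429.5 CPM at 6 h and 55.7 and 69.8 CPM at 1 h (log2 change 2.54, SE 0.29, adjusted p = 4.00e-05). The genes that fell were HEMA2 (-0.44) and FC1 (-0.28), named after their values were seen, and 1 of the 2 was called without red 6 h replicate 2 or without either red 1 h replicate.

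The light-dependent protochlorophyllide oxidoreductases, which turn protochlorophyllide into chlorophyllide, had different levels. PORC (AT1G03630), the form of green tissue, stood at 102 and 153 CPM at 6 h and 20.6 and 21.6 CPM at 1 h (log2 change 2.60, SE 0.32, adjusted p = 6.49e-05). PORA (AT5G54190), the form of etiolated seedlings, stood at 64.2 and 53.8 CPM at 6 h, 192 and 118 at 1 h, 344 and 256 in dark 6 h and 516 and 136 at 0 h, and was not called (log2 change -1.39, SE 0.84, adjusted p = 0.246). PORB stood at 653 and 742 CPM at 6 h and 347 and 245 CPM at 1 h, and was not called either (log2 change 1.24, SE 0.50, adjusted p = 0.0818). In a fit of the 4 light libraries alone both were called, PORA at -1.41 (adjusted p = 0.0176) and PORB at 1.22 (adjusted p = 0.0117). For both genes the red 6 h and red 1 h libraries did not overlap, and the 0 h replicates of PORA lay furthest apart. Carotenoids are bound next to chlorophyll in the antennae, and 8 of 14 genes of their synthesis rose and 0 fell. CYP97A3, a carotene hydroxylase of the lutein branch, rose by 3.13, PDS3, the phytoene desaturase, by 1.04 and Z-ISO, the zeta-carotene isomerase, by 0.93.

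Flavonoid genes gave the largest changes of all named genes. DFR (AT5G42800), which reduces dihydroflavonols on the way to anthocyanins, stood at 44.2 and 54.2 CPM at 6 h and 0.0487 and 0.111 CPM at 1 h (log2 change 9.23, SE 0.86, adjusted p = 9.49e-06). The 1 h values rest on 4 and 9 reads, so that the fitted fold is imprecise, and without red 1 h replicate 2 the log2 change was 9.91. LDOX (AT4G22880), the next enzyme, stood at 55.6 and 60.9 CPM at 6 h and 0.110 and 0.173 CPM at 1 h (log2 change 8.67, SE 0.76, adjusted p = 7.98e-06), from 9 and 14 reads at 1 h. In the dark libraries DFR had 0 and 0.536 CPM at 6 h and 0 and 0.0428 CPM at 0 h, and LDOX 0.0229 and 0.938 CPM at 6 h and 0.0463 and 0 CPM at 0 h. For both genes the red 6 h libraries were the high ones.

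Of 17 flavonoid enzymes, 12 rose and 1 fell, with a median of 2.25. Those that decorate or move anthocyanins rose with DFR and LDOX, namely the glycosyltransferase UF3GT (6.50), the malonyltransferase 5MAT (6.01) and TT19 (6.00), a glutathione S-transferase needed for vacuolar deposition. FLS1, which makes flavonols, stood at 20.6 and 20.1 CPM at 6 h and 0.949 and 1.58 CPM at 1 h (log2 change 4.00, SE 0.52, adjusted p = 9.51e-05). Chalcone synthase, CHS (AT5G13930), the entry enzyme, stood at 180.3 and 238 CPM at 6 h and 9.92 and 27.1 CPM at 1 h (log2 change 3.498, SE 0.81, adjusted p = 0.00503). The red 1 h replicates of CHS lay apart, and the change was 4.38 without replicate 2 and 2.92 without replicate 1 (adjusted p = 0.0654). The member that fell was UGT78D2 (-0.59, named after its value was seen), whose call was lost when any 1 of the 4 libraries was left out. F3H, the flavanone hydroxylase between CHS and DFR, had 0.985 and 0.378 CPM at 6 h and 1.03 and 1.04 CPM at 1 h, and 1588 of its bases overlap the gene AT3G51238 on the other strand in RefSeq. With the strand setting of the counting not given, its low count is uncertain.

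Of 9 regulators of flavonoid genes, 3 rose and 0 fell. MYB12, which activates the flavonol branch, stood at 6.35 and 4.92 CPM at 6 h and 1.095 and 1.43 CPM at 1 h (log2 change 2.15, SE 0.30, adjusted p = 1.55e-04). TT8, a bHLH partner of the anthocyanin MYB factors, stood at 0.960 and 1.04 CPM and 0.219 and 0.0989 CPM (log2 change 2.64, SE 0.49, adjusted p = 0.00137; 3.29 without red 1 h replicate 1). EGL3, a related bHLH, rose by 0.73, with an adjusted p of 0.0591 without red 6 h replicate 2 and 0.0572 without red 1 h replicate 1.

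Regulators of plastid transcription and greening split. Of 17 such genes 11 rose and 3 fell, with a median of 0.75. SIG2, a sigma factor of the plastid-encoded RNA polymerase, rose by 1.502, and PTAC12 and GUN1, both nuclear-encoded plastid proteins, by 1.53 and 1.08. SIG5 (AT5G24120), the sigma factor that responds fast to light, fell to 20.1 and 16.6 CPM at 6 h, against 97.1 and 116 CPM at 1 h (log2 change -2.53, SE 0.25, adjusted p = 1.53e-05), with 3.16 and 2.97 CPM in dark 6 h and 2.59 and 2.90 at 0 h. The other members that fell were GLK2 (-1.82) and GNC (-1.15), named after their values were seen. GLK1, a transcription factor that activates chlorophyll genes, stood at 19.04 and 25.7 CPM and 12.1 and 14.6 CPM (log2 change 0.75, SE 0.22, adjusted p = 0.0193), and was called without red 6 h replicate 1 but not without any of the other 3. The count that rose was 10 or 6 with red 6 h replicate 1 or 2 left out and 6 or 8 with red 1 h replicate 1 or 2 left out.

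Most clock genes were lower at 6 h than at 1 h. Of 26 clock genes, 18 fell and 1 rose (of all genes 11.1% and 16.7% did), with a median log2 change of -1.09. The count that fell was 14 or 17 with red 6 h replicate 1 or 2 left out and 16 or 14 with red 1 h replicate 1 or 2 left out. Their summed level was 1426 and 1505 CPM at 6 h, against 3750.4 and 4036 CPM at 1 h, 1301 and 1365 CPM in dark 6 h and 1185 and 1336 CPM at 0 h. In 17 of the 18 that fell, both 1 h libraries lay above all 4 dark libraries, and in 6 of the 18 both 6 h libraries lay below all 4. Of all 2560 genes that fell, 34.4% had the first pattern and 81.2% the second, and of all genes tested 15.6% and 24.7%. The member that rose was CHE (0.80, named after its value was seen).

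PRR9 (AT2G46790), a pseudo-response regulator of the morning, stood at 8.66 and 8.42 CPM at 6 h, 219 and 248 CPM at 1 h, 4.76 and 6.08 in dark 6 h and 3.98 and 6.16 at 0 h. It fell 27.3-fold between the light libraries (log2 change -4.77, SE 0.62, adjusted p = 8.61e-05), to values still above those of the 4 dark libraries. LHY (AT1G01060) and CCA1 (AT2G46830), the morning MYB factors, fell below the dark libraries. LHY stood at 9.11 and 5.97 CPM at 6 h and 142 and 145 CPM at 1 h (log2 change -4.25, SE 0.66, adjusted p = 3.33e-04), with 69.6 and 49.7 CPM in dark 6 h and 49.6 and 48.0 at 0 h. CCA1 stood at 20.5 and 19.3 CPM at 6 h and 249 and 288 CPM at 1 h (log2 change -3.76, SE 0.55, adjusted p = 2.01e-04), with 66.6 and 51.8 CPM in dark 6 h and 51.7 and 50.3 at 0 h.

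MYB-like genes related to them also fell. ASG4 fell by 4.44 on the log2 scale, to 1.16 and 1.04 CPM against 25.01 and 22.8 CPM at 1 h. RVE1, which links the clock to auxin, changed by -2.97, RVE7 by -2.22 and RVE2 by -2.14. PRR5 stood at 37.0 and 37.3 CPM at 6 h and 110.0 and 104 CPM at 1 h (log2 change -1.52, SE 0.17, adjusted p = 3.66e-05), above the dark libraries in both, which had 10.3 to 11.7 CPM. GI, which tunes clock proteins and flowering, stood at 189 and 189 CPM and 314 and 343 CPM (log2 change -0.80, SE 0.18, adjusted p = 0.00377). TOC1, the evening regulator, stood at 148 and 173 CPM and 199 and 259 CPM (log2 change -0.51, SE 0.14, adjusted p = 0.0151), with no call without red 6 h replicate 1 (adjusted p = 0.109) or red 1 h replicate 2 (adjusted p = 0.186). PRR7 (-0.63, adjusted p = 0.0869) and the evening gene ELF4 (0.27, adjusted p = 0.224) were not called, though DESeq2 called PRR7 (-0.65, adjusted p = 0.0471). ELF4 stood at 42.0 and 33.8 CPM at 6 h and 30.4 and 32.5 CPM at 1 h, against 3.13 to 3.80 CPM in the 4 dark libraries.

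**Figure D3:**
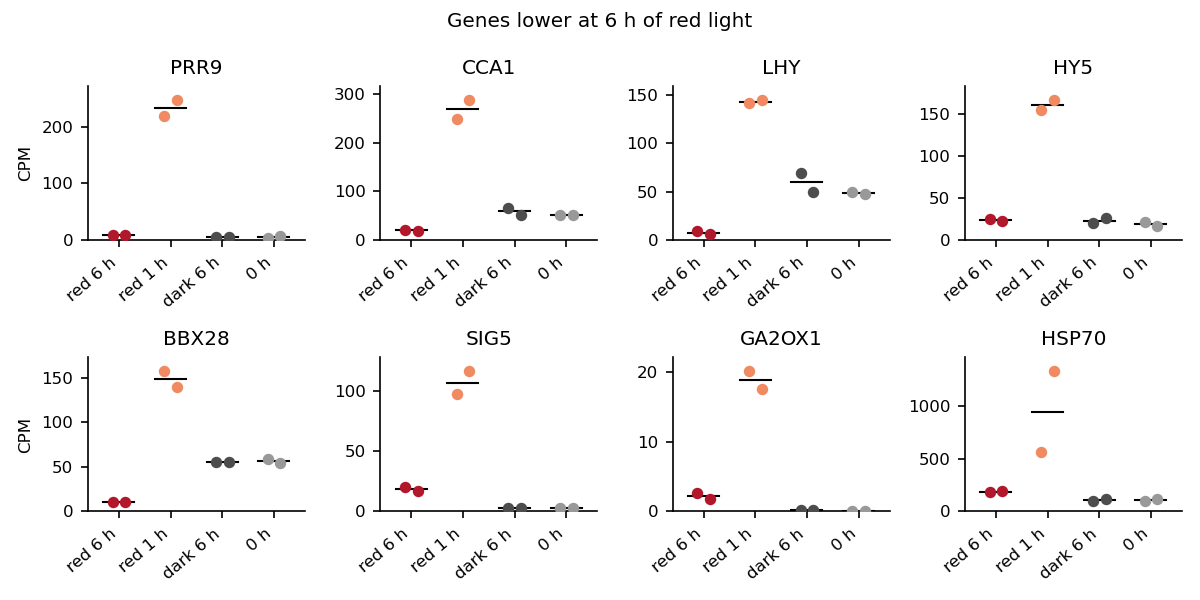
CPM in every library of the red series for 8 genes called lower at 6 h, drawn as points for replicates 1 and 2 with a line at their mean; the groups are red 6 h, red 1 h, dark 6 h and 0 h. The 1 h libraries are the highest for each of the 8, the 6 h libraries of CCA1, LHY and BBX28 lie below the dark ones, and HSP70 has 1 high library at 1 h.

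Of 41 genes of light signalling 21 fell and 5 rose, with a median of -0.58, and 15 of the 21 were above all 4 dark libraries in both 1 h libraries, against 34.4% of all genes that fell. HY5 (AT5G11260), the bZIP factor that activates light-induced genes, fell to 25.2 and 22.2 CPM at 6 h, against 155 and 167 CPM at 1 h (log2 change -2.76, SE 0.23, adjusted p = 6.02e-06), with 19.97 and 25.9 CPM in dark 6 h and 21.3 and 16.3 at 0 h. Its relative HYH (6.33 and 7.62 CPM at 6 h and 9.76 and 11.1 CPM at 1 h) was not called (log2 change -0.58, SE 0.38, adjusted p = 0.287), but was in a fit of the 4 light libraries alone (adjusted p = 0.0374). Of the 13 B-box (BBX) zinc finger genes in the list, several of which act with or against HY5, 10 fell and 1 rose. BBX32 (AT3G21150) stood at 0.556 and 0.991 CPM at 6 h and 23.7 and 36.6 CPM at 1 h (log2 change -5.28, SE 0.63, adjusted p = 5.42e-05), and under 0.05 CPM in each dark library. BBX28 (AT4G27310) stood at 10.5 and 10.4 CPM and 157 and 139.5 CPM (log2 change -3.83, SE 0.36, adjusted p = 9.49e-06), with 54.1 to 59.0 CPM in darkness. RUP1, a repressor of the UV-B receptor UVR8, fell by 2.76 on the log2 scale. HFR1, an atypical bHLH factor that counters the PIFs, changed by -0.91 (adjusted p = 0.00904; 0.0554 without red 6 h replicate 2).

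PIF7 (AT5G61270), a bHLH factor of the shade and warmth responses, moved the other way. It stood at 9.38 and 10.6 CPM at 6 h, 0.864 and 0.890 CPM at 1 h, 0.366 and 0.514 in dark 6 h and 0.509 and 0.656 at 0 h (log2 change 3.51, SE 0.25, adjusted p = 1.98e-06). Only the 6 h libraries were high. The other members that rose were PIF1 (0.65), PIF4 (0.51), BBX22 (0.57) and FAR1 (0.33), named after their values were seen. The count that rose was 3 or 3 with red 6 h replicate 1 or 2 left out and 3 or 2 with red 1 h replicate 1 or 2 left out.

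Of 11 photoreceptor genes, 3 fell and 0 rose (of all genes 11.1% and 16.7% did). PHYA, whose values are given above, changed by -1.18 (SE 0.18, adjusted p = 3.33e-04). CRY3, a cryptochrome of the organelles, fell to 11.5 and 14.1 CPM against 37.3 and 50.7 CPM at 1 h (log2 change -1.78, SE 0.24, adjusted p = 1.00e-04), with 2.38 to 3.71 CPM in darkness. UVR8 changed by -0.26 (adjusted p = 0.0418), a call lost when any 1 of the 4 libraries was left out. PHYB, the main phytochrome of light-grown plants, stood at 112 and 121 CPM at 6 h and 116 and 119 CPM at 1 h (log2 change -0.012, SE 0.08, adjusted p = 0.927).

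Gibberellin promotes hypocotyl growth, and 4 of 6 genes of inactivating enzymes fell. In the list of 29 genes for gibberellin and brassinosteroid, 7 fell and 3 rose (of all genes 11.1% and 16.7% did), with a median of -0.10. Of the 3 that rose, GA20OX2 and GA3OX2 make gibberellin, and no other gene of its synthesis in the list was called higher. The 4 inactivating genes that fell are GA2OX genes, which encode gibberellin 2-oxidases. GA2OX1 (AT1G78440) stood at 2.59 and 1.81 CPM at 6 h, 20.1 and 17.62 CPM at 1 h, 0.229 and 0.201 in dark 6 h and 0.116 and 0.0856 at 0 h (log2 change -3.10, SE 0.20, adjusted p = 1.28e-06). Both 6 h libraries thus remained above the dark ones. GA2OX8 fell by 3.21 and GA2OX2 by 1.32 on the log2 scale. GA20OX2, which makes gibberellin precursors, stood at 11.9 and 11.3 CPM and 3.81 and 4.25 CPM (log2 change 1.52, SE 0.15, adjusted p = 1.81e-05), with 10.02 and 9.22 CPM in dark 6 h and 7.98 and 7.32 CPM at 0 h. GA3OX2, an enzyme of its last step, stood at 1.97 and 1.43 CPM and 0.365 and 0.841 CPM (log2 change 1.496, SE 0.43, adjusted p = 0.0186). Its change was 2.19 without red 1 h replicate 2, and it was not called without red 6 h replicate 1 (adjusted p = 0.107) or red 1 h replicate 1 (adjusted p = 0.186). The third member that rose was the DELLA gene GAI (0.68, named after its value was seen).

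Auxin genes showed no common direction, with 5 of 34 higher, 4 lower and a median of -0.04. YUC8, an enzyme of auxin synthesis, fell by 0.93 on the log2 scale and the efflux carrier PIN7 rose by 0.58. SAUR14, one of the small auxin-up RNAs, stood at 26.2 and 29.4 CPM at 6 h and 13.97 and 16.2 CPM at 1 h (log2 change 0.88, SE 0.19, adjusted p = 0.00343; adjusted p = 0.0513 without red 1 h replicate 1), and neighbouring SAUR genes are similar enough for counts to be uncertain. IAA29, a repressor gene that PIFs activate, stood at 2.06 and 1.96 CPM at 6 h, 1.31 and 1.35 at 1 h and 9.02 to 11.5 CPM in darkness, and its call (log2 change 0.59, SE 0.18, adjusted p = 0.0218) was lost when any 1 of the 4 light libraries was left out. IAA2 (-0.56) was called without red 6 h replicate 2 but not without any of the other 3. IAA19 was not called (0.22, adjusted p = 0.647). The auxin count that rose was 3 or 2 with red 6 h replicate 1 or 2 left out and 1 or 2 with red 1 h replicate 1 or 2 left out. The count that fell was 1 or 4 with red 6 h replicate 1 or 2 left out and 2 or 1 with red 1 h replicate 1 or 2 left out.

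Type-A response regulators, which are induced by cytokinin and damp its signalling, rose in 5 of 9 cases and fell in 0. Among all genes 16.7% rose and 11.1% fell. ARR4 stood at 173 and 162 CPM at 6 h and 97.7 and 84.5 CPM at 1 h (log2 change 0.88, SE 0.12, adjusted p = 1.08e-04). ARR7 rose by 1.33, ARR16 by 1.72 (2.36 without red 1 h replicate 2) and ARR15 by 2.14 (3.16 without red 1 h replicate 2 and 1.52 without replicate 1).

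The cell wall list of 25 had 5 members that rose and 2 that fell, shares near those of all genes (16.7% and 11.1%), with a median of -0.11. Expansins loosen the wall during growth, and 4 of 9 EXPA genes rose, among them EXPA6, which stood at 113 and 138 CPM and 51.0 and 56.2 CPM (log2 change 1.23, SE 0.12, adjusted p = 1.62e-05). EXPA1 rose by 1.44, with an adjusted p of 0.0589 without red 6 h replicate 2 and 0.0572 without red 1 h replicate 1. XTH15 (AT4G14130), a xyloglucan endotransglucosylase of growing walls, stood at 46.8 and 38.1 CPM at 6 h, 575 and 389 CPM at 1 h, 1446 and 1475 in dark 6 h and 1804 and 978 at 0 h (log2 change -3.504, SE 0.40, adjusted p = 3.78e-05). The 1 h libraries lay below the dark ones and the 6 h libraries below those of 1 h. XTH16 rose by 1.47 (adjusted p = 0.0698 without red 1 h replicate 1). The other member that fell was XTH19 (-1.11, named after its value was seen). The count that rose was 4 or 3 with red 6 h replicate 1 or 2 left out and 1 or 4 with red 1 h replicate 1 or 2 left out. The count that fell was 4 or 2 with red 6 h replicate 1 or 2 left out and 2 or 2 with red 1 h replicate 1 or 2 left out.

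Heat shock genes fell, and their level at 1 h differed between the replicates. Of 17 measured, 8 fell and 1 rose, against 11.1% and 16.7% of all genes. The member that rose was HSP18.2 (1.13, named after its value was seen), and the median of the 17 was -1.15. Their sum was 381 and 416 CPM at 6 h, against 937 and 2115 CPM at 1 h, 266 and 313 CPM in dark 6 h and 263 and 347 CPM at 0 h. HSP70 (AT3G12580) stood at 185 and 193 CPM at 6 h and 558 and 1324 CPM at 1 h (log2 change -2.32, SE 0.46, adjusted p = 0.00184), and changed by -1.59 without red 1 h replicate 2 (adjusted p = 0.0317). HSP101, a chaperone that dissolves aggregates, fell by 2.26 on the log2 scale and MBF1C, a coactivator of the heat response, by 1.80. The count that fell was 5 or 6 with red 6 h replicate 1 or 2 left out and 11 or 5 with red 1 h replicate 1 or 2 left out. Red 1 h replicate 2 also had the higher seed storage sum, at 836 CPM. Dark 6 h replicate 2 had a seed storage sum of 584 CPM with a heat shock sum of 313 CPM. Any link between the sums was not tested.

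Of 16 photoprotection and reactive oxygen genes, 5 rose and 2 fell (of all genes 16.7% and 11.1% did). PRXQ, a chloroplast peroxiredoxin, stood at 132 and 196 CPM at 6 h and 23.7 and 24.6 CPM at 1 h (log2 change 2.76, SE 0.40, adjusted p = 1.93e-04), and SAPX, a stromal ascorbate peroxidase, rose by 0.503. ELIP1 (AT3G22840), an early light-induced protein of the thylakoid, fell to 12.6 and 19.00 CPM against 92.2 and 108 CPM at 1 h (log2 change -2.66, SE 0.58, adjusted p = 0.00343), with 1.87 to 4.09 CPM in darkness. Its relative ELIP2 (14.1 and 22.9 CPM and 34.5 and 40.98 CPM) was not called (log2 change -1.03, SE 0.58, adjusted p = 0.211), but was in a fit of the 4 light libraries alone (-1.06, adjusted p = 0.0310). The catalase CAT2 fell by 1.11 on the log2 scale. The count that rose was 5 or 2 with red 6 h replicate 1 or 2 left out and 2 or 3 with red 1 h replicate 1 or 2 left out. In the touch, wounding and jasmonate list of 22 genes, 3 rose and 3 fell, shares near those of all genes (16.7% and 11.1%). The 3 that fell became 7 in a fit of the 4 light libraries alone. LOX2, the plastid lipoxygenase of jasmonate synthesis, stood at 4.72 and 5.74 CPM at 6 h and 0.195 and 0.223 CPM at 1 h (log2 change 4.64, SE 0.61, adjusted p = 1.04e-04). AOS, which acts after it, rose by 0.66, and the cold response factors CBF2 and CBF3 fell by 3.01 and 1.74 on the log2 scale.

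Genes of starvation and of reserve use fell. Of 22 sugar starvation genes 10 fell and 0 rose (of all genes 11.1% and 16.7% did), with a median of -0.68. In 9 of the 10 both 6 h libraries were below all 4 dark libraries, a share near that of all genes that fell (81.2%). Their sum was 3180.4 and 3763 CPM at 6 h, 5333 and 4817 CPM at 1 h, 5902 and 6674 CPM in dark 6 h and 6204 and 7676 CPM at 0 h. BCAT2, which starts the breakdown of branched-chain amino acids, stood at 17.9 and 32.3 CPM at 6 h and 190.0 and 179.7 CPM at 1 h (log2 change -2.88, SE 0.56, adjusted p = 0.00167), and MCCA and IVD, later enzymes of that breakdown, fell by 1.64 and 1.19 on the log2 scale. ETFQO, which passes its electrons on, changed by -0.95 (adjusted p = 0.0221) and was not called without either red 6 h replicate or red 1 h replicate 2. The sugar starvation count was 3 or 3 with red 6 h replicate 1 or 2 left out and 4 or 4 with red 1 h replicate 1 or 2 left out. Of 5 genes that turn stored oil into sugar, 3 fell. ICL, the isocitrate lyase of the glyoxylate cycle, stood at 125 and 90.4 CPM at 6 h and 449 and 472 CPM at 1 h (log2 change -2.09, SE 0.29, adjusted p = 1.54e-04). PCK1, the phosphoenolpyruvate carboxykinase, stood at 779 and 667 CPM and 1859 and 1782 CPM (log2 change -1.33, SE 0.14, adjusted p = 2.12e-05).

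SR proteins bind exonic RNA and help choose splice sites, and the study itself was designed around alternative splicing. Of 19 SR genes 8 fell and 0 rose (of all genes 11.1% and 16.7% did), with a median of -0.36. In 7 of the 8 both 6 h libraries were below all 4 dark libraries, a share near that of all genes that fell (81.2%). SR34 stood at 115 and 135 CPM at 6 h and 225 and 252 CPM at 1 h (log2 change -0.93, SE 0.19, adjusted p = 0.00197). SR30 changed by -0.90, RS40 by -0.82 and RS31 by -0.75. These are gene-level counts and hold nothing on isoforms. The count was 5 or 8 with red 6 h replicate 1 or 2 left out and 8 or 5 with red 1 h replicate 1 or 2 left out.

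Of 19 genes of DNA replication and cell division, 14 rose and 0 fell (of all genes 16.7% and 11.1% did). The median of the list was 0.64, so that most changes were under 2-fold. All 6 genes of the MCM helicase, which unwinds DNA at origins, rose. Among them MCM5 stood at 24.2 and 25.3 CPM at 6 h and 13.4 and 12.6 CPM at 1 h (log2 change 0.93, SE 0.19, adjusted p = 0.00248) and PRL, the MCM7 gene, at 31.1 and 31.2 CPM and 15.99 and 15.5 CPM (log2 change 0.99, SE 0.20, adjusted p = 0.00205). The cyclin gene CYCD1;1 rose by 0.57 and the sliding clamp PCNA2 by 0.74. The count was 9 or 7 with red 6 h replicate 1 or 2 left out and 8 or 4 with red 1 h replicate 1 or 2 left out.

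**Figure D4:**
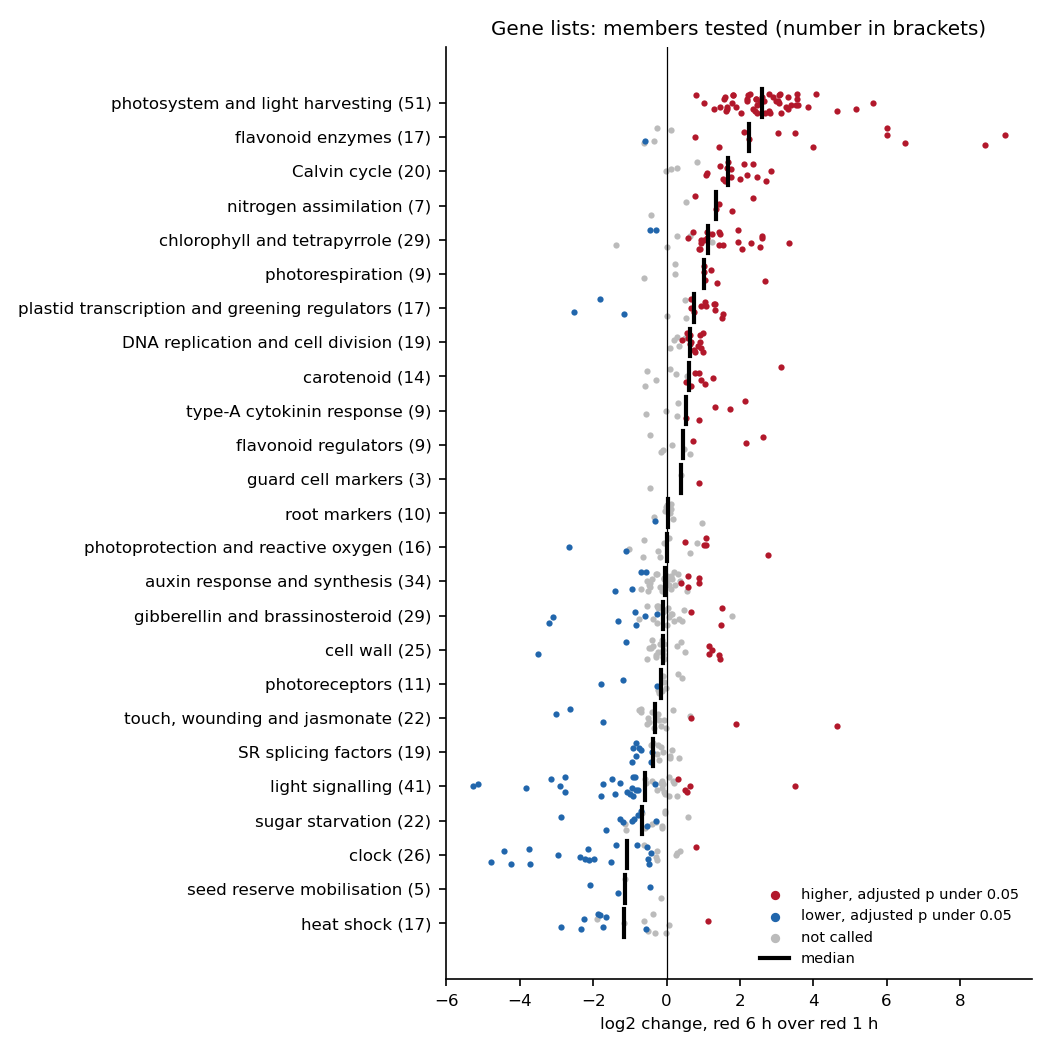
Each point is a gene of the list named at the left (number of members tested in brackets), placed at its log2 change, red 6 h over red 1 h; coloured points were called and the black line is the median. The photosystem list lies wholly to the right of 0 (median 2.60) and most of the clock list to the left (median -1.09).

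The 12 largest falls among called genes with a name, no overlap between the groups and a mean of at least 10 CPM over the 4 light libraries held several genes outside these lists. In 10 of the 12 both 1 h libraries were above all 4 dark libraries, and in 7 of the 12 both 6 h libraries were below all 4, against 34.4% and 81.2% of all genes that fell. The choice by size of the fall bears on both counts. BETA-TIP (AT1G17810), a vacuolar aquaporin of seeds, stood at 1.79 and 3.63 CPM at 6 h, 40.8 and 47.3 at 1 h, 50.7 and 56.4 in dark 6 h and 50.4 and 59.7 at 0 h (log2 change -4.02, SE 0.76, adjusted p = 0.00134; -4.64 without red 6 h replicate 2). RAB18, a dehydrin induced by abscisic acid, stood at 5.90 and 8.59 CPM at 6 h and 84.7 and 72.1 CPM at 1 h (log2 change -3.44, SE 0.60, adjusted p = 7.89e-04). MAPKKK13, a protein kinase gene, changed by -3.49, and ABCI21, an ABC transporter family gene, by -3.35 (-3.95 without red 6 h replicate 1). MIR156f, the locus of a miRNA precursor, stood at 3.13 and 3.48 CPM and 34.9 and 29.9 CPM (log2 change -3.29, SE 0.56, adjusted p = 6.34e-04). These are reads of the locus and not of the mature miRNA. All 132 bases of the locus lie within AT5G26146 on the same strand, so that reads of the 2 genes cannot be told apart. Among the 12 largest rises by the same rule, which leaves out UF3GT and 5MAT for their mean level, CYP96A12, a cytochrome P450 gene, was the member outside photosynthesis and flavonoid synthesis, at 21.7 and 17.83 CPM at 6 h and 0.816 and 1.63 CPM at 1 h (log2 change 4.01, SE 0.39, adjusted p = 1.48e-05). For all 12 the 6 h libraries lay above all dark ones, and for 5 the 1 h libraries already did (94.9% and 20.1% of all genes that rose).

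To set these changes against time without light, the change between the light libraries was tested against that over 6 h of darkness in the red series. The intervals differ, at 5 h in light and 6 h in darkness, as do the pool sizes of lit and dark libraries, and this test uses the same 4 light libraries. The changes differed for 2370 genes (10.3%), with 1340 (5.82%) changing more upward in light and 1030 (4.48%) more downward. Of the 51 photosystem genes 41 were called higher in this test, of 20 Calvin cycle genes 11 and of 29 chlorophyll genes 15. Of 26 clock genes 13 were lower, of 41 light signalling genes 13 and of 19 SR genes 4. For DNA replication genes the count was 0 of 19, which does not show equal changes. Their median log2 change was 0.64 in light and 0.13 in darkness. The differences of MCM5, PRL and PCNA2 were 0.90, 0.86 and 0.52 (adjusted p = 0.0501, 0.0679 and 0.127). For flavonoid enzymes the count was 5 of 17, with DFR and LDOX not called (differences 5.96 and 4.04, SE 3.80 and 3.94, adjusted p = 0.37 and 0.589). Both had under 1 CPM in every dark library of the series, and the test was imprecise for them. The count for all genes was 2196 or 1208 with red 6 h replicate 1 or 2 left out, 1267 or 1230 for red 1 h, 1272 or 1174 for dark 6 h and 1526 or 2257 for 0 h.

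**Figure D5:**
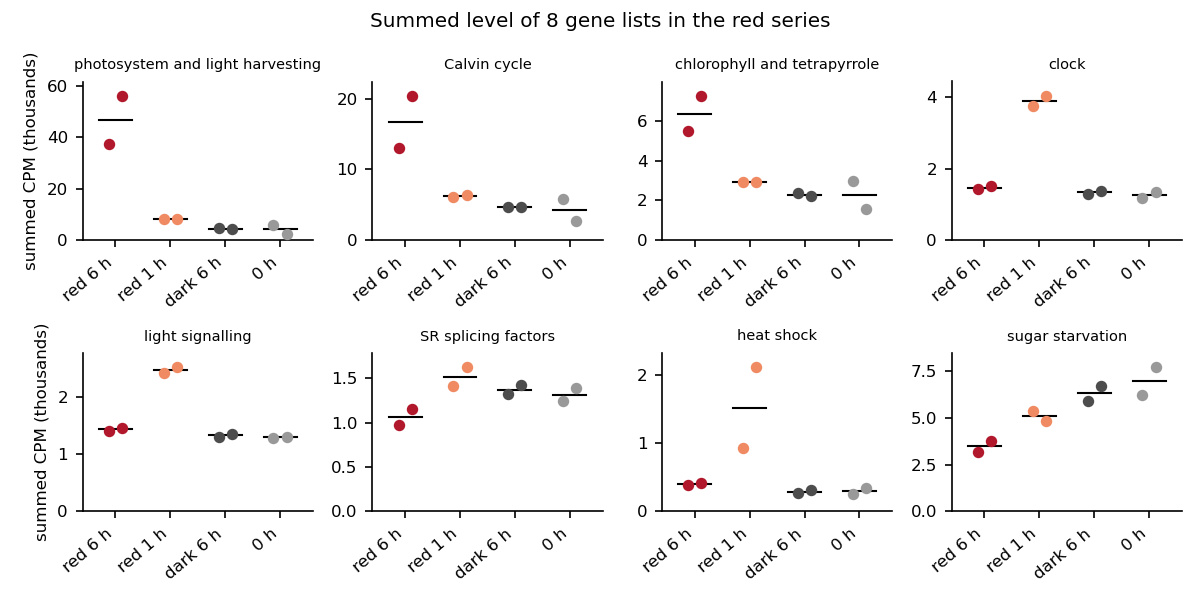
Summed CPM of 8 gene lists in every library of the red series, with points for replicates 1 and 2 and a line at their mean; the groups are red 6 h, red 1 h, dark 6 h and 0 h. Vertical axes are labelled in CPM divided by 1e3. The photosystem sum is 37219.8 and 56068 CPM at 6 h against 7990.2 and 8013 CPM at 1 h, and the clock and light signalling sums are highest at 1 h.

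Blue light was compared over the same times to ask whether red light differed from it. In blue light 7536 genes were called for 6 h against 1 h (32.7%). Of all genes tested, 19.3% rose and 13.4% fell in blue light. Of the 3842 genes that rose in red light 3038 also rose in blue light, which is 79.1% of the red list and 68.3% of the blue list. Of the 2560 that fell, 1772 also fell in blue light, which is 69.2% and 57.4%. The difference between the changes was called for 12 genes (0.0521%), all with the lower change in red light. A further test, DESeq2, called 123, and 1535 genes had an unadjusted p under 0.05. The count was 7 or 9 with red 6 h replicate 1 or 2 left out, 4 or 2 for red 1 h, 3 or 13 for blue 6 h and 5 or 629 for blue 1 h. A gene missed by this test is not shown to respond alike in both colours. PIL1 stood at 17.99 and 12.9 CPM at 6 h and 3.502 and 2.99 CPM at 1 h of blue light, against the levels near 2 CPM at both times in red light given above (difference of log2 changes -2.34, SE 0.29, adjusted p = 0.00732). GA2OX1 stood at 16.6 and 13.1 CPM at 6 h and 25.9 and 22.3 CPM at 1 h of blue light, where it fell by less than in red light (difference -2.40, SE 0.27, adjusted p = 0.00374).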

How the data were processed

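Gene expression in 22 libraries of Arabidopsis seedlings was taken from the table of raw read counts deposited by the authors, whole numbers with no normalisation. Per the labels' protocols, each library started with 4 µg of RNA and an Illumina TruSeq kit, and per the submitters' processing notes the genome build is TAIR10. Aligner, counter, strandedness and multi-mapping rules were not given in the sources used here, which makes the values of near-identical or overlapping genes uncertain, and 38 of the 138 named genes overlap another gene in RefSeq. All columns of the table belonged to a sample. The white 1 h group was not analysed here.

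Of 33602 genes, filterByExpr (minimum count 10) kept 23011, with 99.99% of counts. Counts were scaled by TMM, a mean was fitted for every group in 1 model of all 22 libraries (11 residual degrees of freedom), and contrasts were tested by quasi-likelihood F in edgeR 4.0.16 (R 4.3.3). Genes were called at a Benjamini-Hochberg adjusted p under 0.05 over all genes kept, and an SE is the log2 change over the square root of F. With 2 against 2 libraries an exact permutation test cannot give a p under 0.333, so list sums have no test. Replicates differed beyond counting error in both groups (chi-square per degree of freedom 92.4 at red 6 h and 32.5 at red 1 h). The test was also run on simulated counts. These were drawn independently for each library, so without deviations shared by same-numbered libraries.

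Names came from RefSeq by locus tag, which matched 32835 genes. The lists, 26 by hand with 496 genes of which 491 were tested, left out 9 loci that RefSeq does not name, and ribosomal proteins were taken by RefSeq description. The members and lists were chosen with earlier results of these data known. Genes named are the 12 largest rises and falls among called genes with a mean of at least 10 CPM over the 4 light libraries, no overlap and a name, up to 4 called members per list by adjusted p, the 5 extremes of each difference contrast, and 31 chosen by name. Alternatives were RLE factors, library totals, no filter, DESeq2 1.42.0, a log2 threshold of 1, a filter of 5 CPM in at least 2 libraries, organelle genes removed, a replicate block, smaller sets of libraries, thinning and leaving out each library. Where that left a group with 1 library, it was assumed to vary like the other groups.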

Additional observations from a re-analysis of the deposited data

Results flagged for a closer look

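These results are listed because 2 effects under the same contrast differed by a test of the difference itself (edgeR, adjusted p under 0.05). The change between 6 h and 1 h was lower in red than in blue light for 7 named genes. PIL1 had a difference of -2.34 and GA2OX1 of -2.40. SQE3, a squalene epoxidase, had -1.38, with a log2 change of -0.66 in red and 0.72 in blue light. PPC2, a phosphoenolpyruvate carboxylase, had -1.31, with 0.24 in red and 1.54 in blue light. GTL1, a trihelix factor, had -1.04, with -0.17 and 0.88, and MEE51, of the phosphofructokinase family, had -0.74, with -0.15 and 0.59 in red and blue light. PHYB had -0.68, with 112 and 121 CPM at 6 h and 116 and 119 CPM at 1 h in red light, and 229 and 219.7 CPM at 6 h and 132 and 149 CPM at 1 h in blue light. With any 1 of the 8 libraries left out in turn, the calls of SQE3, PPC2 and GTL1 were lost in most cases. That of MEE51 was lost in several. For PIL1 and PHYB this difference was not examined with a library left out.

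Among called genes with a name and a mean of at least 10 CPM over the 4 light libraries, the change in red light differed from that in darkness most for LHCB1.2 (5.85), LHCB1.4 (5.04), LHCB1.1 (4.86), CA1 (4.53) and PSAH2 (3.86) upward. Downward, the 5 were ASG4 (-5.08), PRR9 (-4.85), LHY (-4.54), GA2OX1 (-4.22) and RAB18 (-4.04). Leaving out 0 h replicate 1 gave 4.24 for LHCB1.2, 4.34 for LHCB1.4, 3.31 for LHCB1.1, 3.14 for CA1 and 3.17 for PSAH2, all still called. Without 0 h replicate 2, LHCB1.2 had 6.600, LHCB1.1 5.59 and CA1 5.23.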

How the results depend on the processing

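The 6402 genes called for red 6 h against 1 h stayed within 1.5 times that number under RLE factors (6382), library totals alone (6365), no filter (5846), the stricter filter (5752), DESeq2 (6999), no organelle genes (6423), the 4 light libraries alone (5545), the red series alone (5716) and thinning to 35000731 counts (5970). The 4 light libraries alone gave 2906 genes higher and 2639 lower, against 3842 and 2560 in the main fit. A required log2 change of at least 1 left 536 genes, 418 higher and 118 lower. Leaving out a library gave 3534 to 5193 genes, 1945 to 3340 higher and 1506 to 1853 lower. These fits held fewer libraries, and why their counts were lower and differed from each other was not tested. No called change of a named gene reversed under any alternative run. With library totals alone the median log2 change of all genes was -0.0277, against 0.0025 with TMM.

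The number that differed between light and darkness, 2370, became 75 with a log2 change of at least 1, 1525 in the red series alone, 3578 with the replicate block and 1174 to 2257 with a library left out. The 12 that differed between red and blue became 4 with library totals, 1 with a log2 change of at least 1, 63 with the replicate block, 123 by DESeq2 and 2 to 629 with a library left out. The cause was not tested. Dark 6 h against 0 h gave 0 to 1 called genes with a library left out. Libraries share only a number: deviations of same-numbered red 6 h and red 1 h libraries from their group means correlated at 0.213 across genes, and over the red series 5 of 6 pairs of groups were above 0.1 (0.0478 to 0.458). The replicate block called 7896 genes for red 6 h against 1 h, 4510 higher and 3386 lower. With the block 16 sugar starvation genes fell, and PRR7 (-0.60, adjusted p = 0.00756) and PORB (1.301, adjusted p = 0.0131) were called. Depth limits genes near 1 CPM or less, such as DFR and LDOX at 1 h.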

Other observations

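Of 324 ribosomal protein genes measured, 126 rose and 4 fell, against 16.7% and 11.1% of all genes, with a median log2 change of 0.32 and a sum of 27957 and 31901 CPM at 6 h against 23991 and 23745 CPM at 1 h. The members with the smallest adjusted p encode plastid ribosomal proteins. RFC3, a plastid S6-like protein, stood at 33.6 and 56.4 CPM at 6 h and 6.61 and 8.16 CPM at 1 h (log2 change 2.61, SE 0.30, adjusted p = 4.53e-05), PSRP3/1 rose by 2.31, RPL12-A by 1.92 and RPL27 by 1.81. The count that rose was 108 or 42 with red 6 h replicate 1 or 2 left out and 61 or 56 with red 1 h replicate 1 or 2 left out. The telobox AAACCCTA, a motif common in promoters of ribosomal protein genes, was found in 45 of their 324 promoters (13.9%), against 4.87% of promoters of genes that rose, 2.74% of those of genes that fell and 3.67% of all, searched on both strands.

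Transcripts of the organelles' own genomes were tested beside the nuclear photosystem genes. Of 133 plastid-encoded genes 39 were tested, and 0 were called (median -0.41), with sums of 834 and 637 CPM at 6 h and 923 and 755 CPM at 1 h. Of 146 mitochondria-encoded genes 51 were tested and 1 rose (ATMG00480, 2.27, not called without any 1 of the 4 libraries). A fit of the 4 light libraries alone called 18 of the mitochondrial genes lower. Most organelle transcripts lack a stable poly(A) tail, and the selection step of the libraries is not given in the sources used here.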
